A study of Mus musculus with 4 samples.

Results

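The genes described here encode the proteins of the cytosolic ribosome. They were chosen by name alone: 75 of the 31247 genes in the count table carry a symbol of the Rpl, Rps or Rplp form, and 3 of these were not analysed here, which left 72 genes. Of the 72, 44 belong to the large ribosomal subunit and 28 to the small subunit. RNA was sequenced from sorted lung cells of mice at postnatal day 7. The 2 CKO libraries came from animals that carried PDGFRb-GFP, Tbx4-rtTA, Tet-O-Cre and the recombined Dnmt1-D/D alleles, so Dnmt1, the maintenance DNA methyltransferase, was targeted through a Cre that depends on the Tbx4-driven transactivator. The 2 WT libraries came from wild-type animals with the PDGFRb-GFP reporter, and the labels name neither of the other transgenes nor any doxycycline for them, so transgene and deletion cannot be told apart. All 4 samples shared the reporter, the day 7 age, a 45-minute enzymatic digestion and a sort for GFP-positive cells that gave about 300000 to 350000 cells each. The series calls these cells myofibroblasts.

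A ribosome joins a small subunit, which reads the mRNA, to a large subunit, which forms the peptide bonds. Cells make the ribosomal proteins in matched amounts, and their mRNAs are among the most abundant of any growing cell. In mammals these mRNAs begin with a run of pyrimidines, the terminal oligopyrimidine (TOP) tract, through which mTOR signalling sets how strongly they are translated, so the mRNA level is not the rate at which the protein is made.

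The starts of 6 of these genes are printed to show that feature: 4 hold a pyrimidine run in the reference and 2 do not. Each window holds 45 bases before the RefSeq start and the first 15 transcribed bases, 5′ to 3′ on the gene's strand, with the pyrimidine run in capitals. A run was a C followed by at least 4 C or T, beginning within 5 bases of the start. Rps27 (chr3:90213634-90213693, minus strand), Rps18 (chr17:33955651-33955710, minus), Rpl18 (chr7:45718026-45718085, plus) and Rpl34 (chr3:130730384-130730443, minus) held a run, and Rpl41 (chr10:128549154-128549213, minus) and Rplp0 (chr5:115559422-115559481, plus) did not, all in GRCm38.p6. Rplp0 is shown as a gene that did not pass the test; the other 5 did.
Rps27: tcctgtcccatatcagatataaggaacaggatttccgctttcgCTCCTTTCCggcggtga
Rps18: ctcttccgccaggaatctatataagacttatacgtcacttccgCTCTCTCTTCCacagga
Rpl18: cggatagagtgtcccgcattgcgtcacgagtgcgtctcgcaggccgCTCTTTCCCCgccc
Rpl34: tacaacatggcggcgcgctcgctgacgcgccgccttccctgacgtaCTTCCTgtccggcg
Rpl41: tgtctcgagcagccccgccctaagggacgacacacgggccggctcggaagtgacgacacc
Rplp0: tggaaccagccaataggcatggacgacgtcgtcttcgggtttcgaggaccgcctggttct

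The RefSeq table held a promoter, from 250 bases before the start to 50 after it, for 52 of the 72 genes. For these the promoter nearest to the GENCODE start was taken. For all genes the first one listed was taken, whether or not the gene was expressed. A pyrimidine run stood at the start in 24 of the 52 (46.2%), against 4986 of all 27018 promoters (18.5%). The search used 1 annotated start a gene, so a run at another start would be missed. Among genes without a run, the RefSeq start lay 127 bases from the GENCODE start in Rpl22, 86 in Rps28, 6 in Rpl41 and 0 in Rplp0. A missing run is therefore not evidence that the mRNA lacks the tract. Among the genes called higher in CKO below, 5 of 9 had one. On either strand, CCGGAAG, bound by ETS factors such as GABP, was in 36.5% of the ribosomal protein promoters and 9.1% of all. AAGATGG, the YY1 core, was in 15.4% and 6.5%, the E-box CACGTG in 9.6% and 7.2%, and TATAA in 25% and 25.5%. None of these motifs contains another. Ribosomal protein promoters had a median of 21.5 CpG sites, against 7 over all promoters. Promoter methylation was not measured, and a match is a description of the letters only.

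The libraries held 26420648 and 23581186 counted reads in CKO and 23071657 and 25709717 in WT. Columns of the count table carry a genotype but no replicate number, so the libraries are called CKO A, CKO B, WT A and WT B. The column names of CKO A, CKO B and WT B start with the same number, whose meaning is not given in the labels, and that of WT A does not. WT B had reads on 27643 genes, against 22237 and 22532 in CKO and 21883 in WT A. Dnmt1 had 78.1 and 29.5 CPM (reads scaled to the library's size) in CKO and 144 and 115 CPM in WT. Both CKO libraries were lower, but the change was not called here (log2 change −1.27 ± 0.57 SE, edgeR adjusted p = 0.310). The authors' deposited table gave Dnmt1 a log2 change of −1.23 with an adjusted p of 0.0290 in their own test, under 0.05. With CKO A left out the Dnmt1 change was −2.11 (edgeR adjusted p = 3.825e-05); leaving out CKO B instead gave −0.72 (edgeR adjusted p = 0.0401). Pdgfrb, the gene behind the reporter, had 374 and 317 CPM in CKO and 507 and 477 CPM in WT. The 7 immune markers summed to 69.9 and 42.5 CPM in CKO and 25.5 and 35.2 CPM in WT, and 4 of the 7 were called higher in CKO. The 5 endothelial markers summed to 117 and 67.9 CPM in CKO and 64.2 and 88.8 CPM in WT, the 5 epithelial markers to 89.5 and 32.1 CPM in CKO and 32.9 and 94.1 CPM in WT, and the 8 mesenchymal markers to 71540 and 78210 CPM in CKO and 63720 and 64670 CPM in WT. Most of the mesenchymal sum came from Eln, Col1a1 and Col3a1; Pdgfra, at 406 and 324 CPM in CKO and 596 and 511 CPM in WT, and Tgfbi, at 6100 and 4093 CPM in CKO and 7959 and 7438 CPM in WT, had lower values in both CKO libraries, and none of the 8 was called. The 4 erythroid markers summed to 11 and 5.52 CPM in CKO and 16.1 and 23.7 CPM in WT, and Hba-a1 was called lower in CKO (edgeR adjusted p = 0.0370). The part of other cell types in the results below was not tested, and in bulk RNA a change in the cells present and a change in RNA per cell cannot be told apart.

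Ribosomal protein mRNAs were a larger share of all counted reads in the CKO libraries, in both subunits. They took 2.86% and 2.53% of reads in CKO and 2.14% and 2.27% in WT. Both CKO libraries were above both WT libraries, with means of 2.69% ± 0.231 in CKO and 2.21% ± 0.0919 in WT (SD, n = 2 each), a ratio of 1.22. The exact two-sided permutation test gave p = 0.333, the smallest that 2 against 2 libraries allow. Large-subunit genes took 1.84% and 1.60% in CKO and 1.39% and 1.46% in WT, a ratio of 1.21. Small-subunit genes took 1.02% and 0.927% in CKO and 0.752% and 0.811% in WT, a ratio of 1.24. The balance of the subunits overlapped between genotypes: there were 1.81 and 1.73 large-subunit reads for each small-subunit read in CKO, and 1.84 and 1.80 in WT. The log2 of that balance was 0.82 ± 0.05 in CKO and 0.87 ± 0.02 in WT (SD, n = 2 each, exact permutation p = 0.667). With reads of pseudogenes that carry the gene's symbol and a -ps suffix added to their parent genes, the groups no longer overlapped, with CKO lower. Copies under other names were not added. The log2 difference was then −0.040, against −0.041 before (exact permutation p = 0.333, the smallest possible). The groups also separated, at the same p, with mean log2 CPM (−0.048) and without the 3 members with most reads (−0.052).

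**Figure D1:**
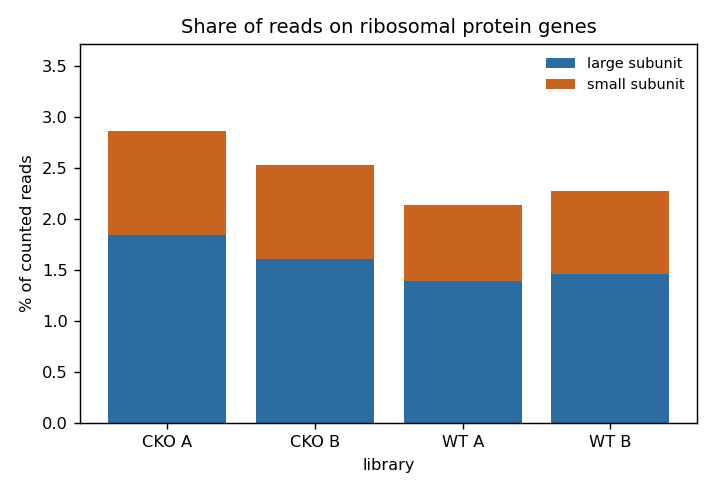
Percent of counted reads on large-subunit and small-subunit genes (stacked bars, from 0) in each CKO and WT library. The stacks reach 2.86% and 2.53% in CKO and 2.14% and 2.27% in WT.

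Gene by gene, the class was shifted up by a small amount. The median log2 change of CKO over WT was 0.31, a fold of 1.24, against −0.01 over all 15210 genes tested, and the quartiles were 0.25 and 0.42. Of the 72 genes, 70 had a change above 0, against 49.1% of all genes tested. In 62 of the 72, both CKO libraries were above both WT libraries, against 27.7% of all genes. Edges of the range were −0.85 for Rpl24 and 0.65 for Rpl30. The median was 0.31 for the 44 large-subunit genes and 0.32 for the 28 small-subunit genes, all 28 of which were above 0.

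**Figure D2:**
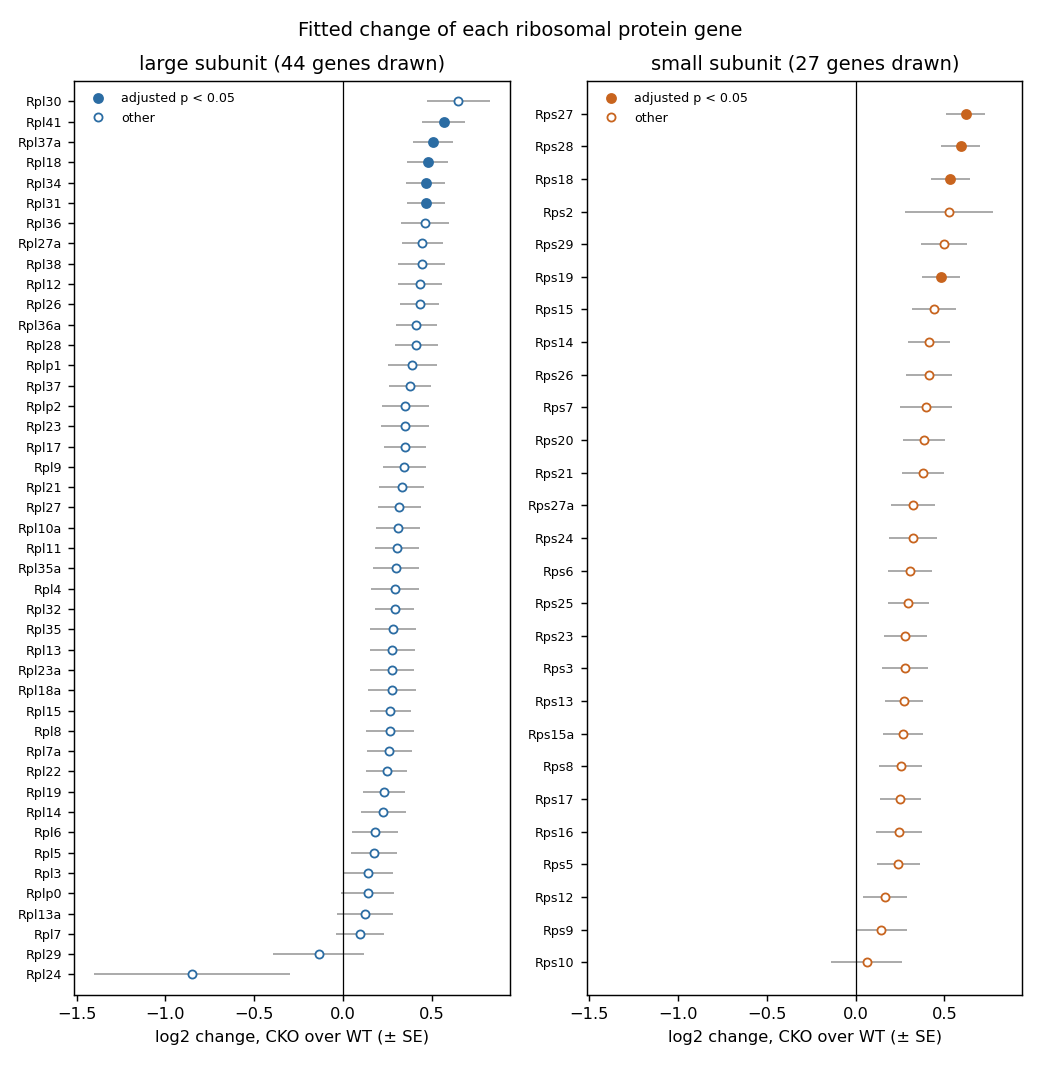
Fitted log2 change of CKO over WT for 71 of the 72 genes (points, with SE bars), large subunit left and small subunit right; filled points passed an adjusted p of 0.05. Of the 71 points, 69 lie right of 0.

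The shift differed between libraries of 1 genotype. Set as a percent of the WT mean of each gene, the median gene stood at 132% in CKO A, 115% in CKO B, 99.4% in WT A and 101% in WT B. The number of genes above their WT mean was 70 in CKO A, 65 in CKO B, 28 in WT A and 43 in WT B. Between the CKO libraries the median log2 difference was 0.17, with 66 of 72 genes higher in CKO A, and between the WT libraries it was −0.02. All 4 pairs of a CKO with a WT library had a positive median, the lowest being 0.21 for CKO B over WT B and the highest 0.43 for CKO A over WT A. CKO A also had the larger share of reads from the mitochondrial genome, 2.63% and 2.21% in CKO and 2.09% and 2.06% in WT.

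**Figure D3:**
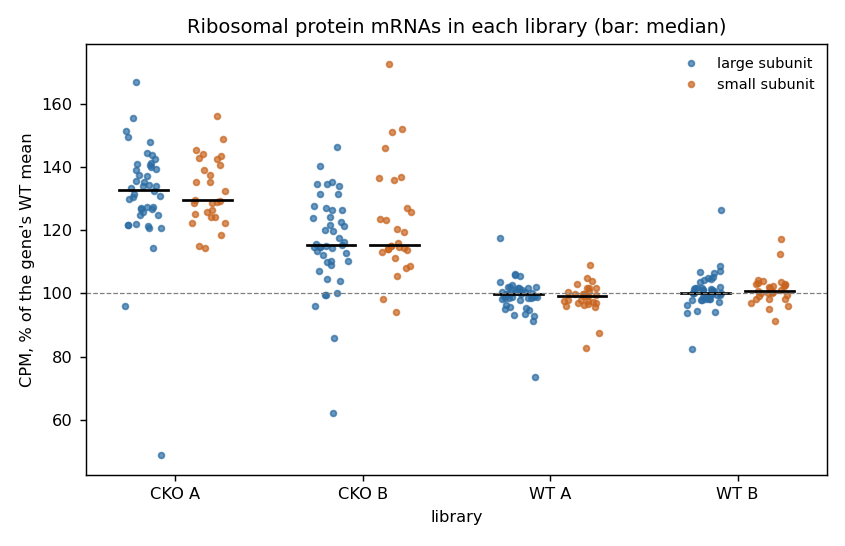
Level of each of the 72 genes in each library as a percent of its WT mean, CKO left of WT, with the median as a bar. The medians are 132% and 115% in CKO and 99.4% and 101% in WT.

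Tested singly with edgeR and Benjamini-Hochberg adjustment over all genes, 9 of the 72 genes rose in CKO at an adjusted p under 0.05, which is 12.5%, against 4.85% of all genes tested. None fell, against 2.75% of all genes (7.61% in either direction); none was lower at an unadjusted p under 0.05, and DESeq2 and limma-voom called none lower. At an unadjusted p under 0.05, 44 were higher, against 13.1% of all genes. The 9 were 5 of the large subunit (Rpl18, Rpl31, Rpl34, Rpl37a and Rpl41) and 4 of the small subunit (Rps18, Rps19, Rps27 and Rps28). A further 15 had an adjusted p from 0.05 to 0.1. DESeq2 called 23 of the 72 higher with no filter before the fit (2.92% of all 31247 genes) and 26 on the filtered genes (6.5%). DESeq2's own default filter on mean count was left on, and these shares include any genes it left without an adjusted p. With no filter on low counts edgeR called 27 (4.94%). All 9 calls were lost without WT A, which leaves the 3 libraries whose names share a number and where Rpl30 alone was called (2.31% of all genes), and without WT B, where no member was called (1.56% of all genes); the log2 changes of the 9 without either stayed above 0. The authors' deposited table gave 11 of the 72 an adjusted p under 0.05, all higher in mutant, against 3.04% of its genes, and these held all 9.

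Among the small-subunit genes, Rps27, a zinc-binding protein, had the lowest p. It had 299 and 289 CPM in CKO and 195 and 188 CPM in WT, with no overlap and a log2 change of 0.62 ± 0.11 (SE; edgeR adjusted p = 0.0162). Sequence shared with other annotated genes was common in the class: 71 of the 72 genes had at least 1 such 50-base window, with a median of 55.5% of windows, and Rps27 had the most, 98.6% over 9 other genes, of which Rps27rt was the closest. Reads of such genes may be split. Rps28, a protein of the small-subunit head, had 320 and 327 CPM in CKO and 221 and 208 CPM in WT (log2 0.59 ± 0.11 SE, edgeR adjusted p = 0.0203). Rps18, also of the head, had 356 and 364 CPM in CKO and 249 CPM in both WT libraries, a 1.45-fold rise (edgeR adjusted p = 0.0283). Rps19, the first gene linked in humans to Diamond-Blackfan anaemia, had 231 and 219 CPM in CKO and 160 and 163 CPM in WT, a 1.40-fold rise. In each of these genes the WT libraries lay close together and well below the CKO pair.

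Among the large-subunit genes, Rpl41, the smallest ribosomal protein, which bridges the subunits, had 561 and 506 CPM in CKO and 367 and 354 CPM in WT. Its log2 change was 0.57 ± 0.12 (SE; edgeR adjusted p = 0.0327). Rpl37a, a zinc-binding protein, had 285 and 256 CPM in CKO and 191 and 190 CPM in WT, a 1.42-fold rise. Rpl31, which lies beside the exit of the peptide tunnel, had 275 and 264 CPM in CKO and 196 and 194 CPM in WT, a 1.38-fold rise. The WT values were again nearly equal, and CKO A was the higher of the CKO pair in all 3. Rpl34 had 207 and 189 CPM in CKO and 141 and 145 CPM in WT (edgeR adjusted p = 0.0434), and Rpl18 had 447 and 419 CPM in CKO and 308 and 314 CPM in WT (edgeR adjusted p = 0.0457). Rpl30, whose fitted change was the highest of the 72, had 67.5 and 59.1 CPM in CKO and 47.5 and 33.3 CPM in WT; its WT libraries were far apart and it missed the threshold (log2 0.65 ± 0.18 SE, edgeR adjusted p = 0.0710).

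The stalk proteins, which recruit the translation factors that use GTP, did not pass the edgeR test. Rplp0, the base of the stalk, had 1398 and 1152.5 CPM in CKO and 1183 and 1133 CPM in WT, so the groups overlapped (log2 0.14 ± 0.15 SE, edgeR adjusted p = 0.611). Rplp1 had 1052 and 909 CPM in CKO and 774 and 721 CPM in WT (log2 0.39 ± 0.14 SE, edgeR adjusted p = 0.128). DESeq2 called Rplp1 higher (adjusted p = 0.0332, and 0.0292 on the filtered genes), as did edgeR with no filter (adjusted p = 0.0438). Rplp2 had 432 and 357 CPM in CKO and 317 and 301 CPM in WT. Neither Rplp1 nor Rplp2 overlapped. Rpl5 and Rpl11 form a particle with the 5S rRNA that also binds Mdm2, the p53 inhibitor. Rpl5 had 355 and 303 CPM in CKO and 277 and 307 CPM in WT, which overlapped, and Rpl11 had 444 and 389 CPM in CKO and 332 and 343 CPM in WT, which did not; neither was called. Of 6 genes at the tunnel exit 1 rose, of 14 genes of the small-subunit head 3 rose, and of 20 genes linked in humans to Diamond-Blackfan anaemia 5 rose, which is 16.7%, 21.4% and 25%, against 12.5% of the 72 genes and 4.85% of all genes. Their median log2 changes were 0.31, 0.31 and 0.35, and these calls too were lost without either WT library.

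In 9 genes the libraries of the genotypes overlapped: Rpl3, Rpl5, Rpl7, Rpl13a, Rpl29, Rplp0, Rps2, Rps9 and Rps10. Rpl29 had 191 and 171 CPM in CKO and 146 and 252 CPM in WT, with WT B the highest and WT A the lowest of the 4 (log2 −0.14 ± 0.26 SE, edgeR adjusted p = 0.789); without WT B its change was 0.32. Rpl7 had 674 and 586 CPM in CKO and 567 and 611 CPM in WT, and Rps9, which lies near the mRNA entry, had 651 and 523 CPM in CKO and 522 and 542 CPM in WT. Rpl13a had 21.6 and 17.1 CPM in CKO and 17.6 and 18 CPM in WT, and Rps10 had 8.45 and 6.95 CPM in CKO and 7.68 and 7.09 CPM in WT. In Rpl7, Rps9, Rpl13a and Rps10, CKO A was the highest library and CKO B lay among or below the WT pair. Rpl24 was the only gene lower in both CKO libraries, with 8 and 9 reads in CKO and 13 and 18 reads in WT, too few to show a difference (log2 −0.85 ± 0.55 SE, edgeR adjusted p = 0.380).

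Levels between genes were compared as RPKM, the reads scaled to the library and to each kilobase of annotated transcript, averaged over the 4 libraries. The median gene stood at 410 RPKM, against 6.03 RPKM over all ranked genes, and 58 of the 72 were among the 200 highest of 15200. Rplp1 was highest at 1732 RPKM, followed by Rpl41 at 1023 RPKM, Rps28 at 993 RPKM, Rps15, a protein of the decoding region, at 905 RPKM, Rplp0 at 896 RPKM and Rps12 at 872 RPKM. The lowest were Rpl24 at 0.717 RPKM, Rps10 at 15.1 RPKM, and Rpl13a, known in human cells as a translational silencer, at 17.7 RPKM. In the annotation these 3, and no other member, are covered over more than 50% of their exons by another gene on the same strand: 71.5% for Rpl24, 91.6% for Rps10 and 59.3% for Rpl13a. The sources used here do not give how reads in such overlaps were counted, and the part of the overlaps in these low levels was not tested. Rps20 at 80.4 RPKM has an annotated transcript of 3706 bases, which lowers its value per kilobase.

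Rps2, which lines the mRNA entry of the small subunit, varied widely within each genotype. It had 412 and 619 CPM in CKO and 296 and 420 CPM in WT, so the groups overlapped (log2 0.53 ± 0.25 SE, edgeR adjusted p = 0.255). A processed copy, Rps2-ps13 (chromosome X, 52898588 to 52899469, GRCm38), is 99.2% identical to Rps2 over 882 bases, with 7 mismatches. It held 4209 and 5 reads in CKO and 2674 and 1 in WT, which is 28.0% and 0.0348% of the reads on both genes in CKO and 28.4% and 0.00899% in WT. CKO A and WT A carried the copy's reads and CKO B and WT B almost none. Summed over both genes the libraries no longer overlapped, at 572 and 619 CPM in CKO and 414 and 420 CPM in WT, and Rps2 was called higher when pseudogene reads were added to their parent genes. The reason for the split was not tested.

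**Figure D4:**
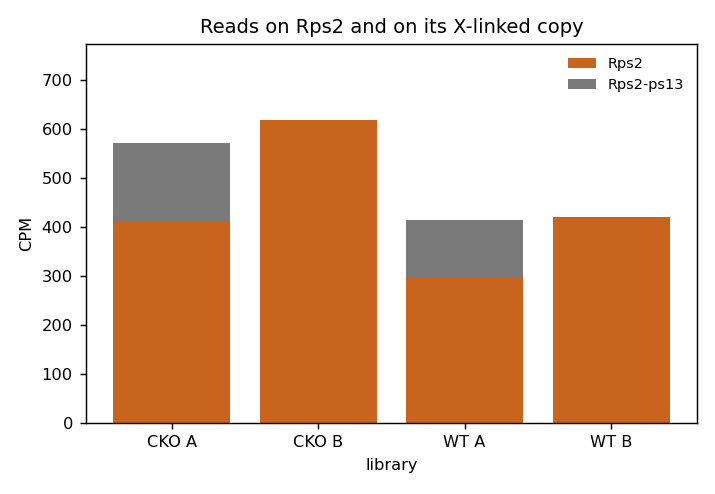
CPM of Rps2 and of Rps2-ps13 in each library, stacked from 0. The copy is visible in CKO A and WT A only, and the stacks reach 572 and 619 CPM in CKO and 414 and 420 CPM in WT.

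The change was greater in genes with short coding sequences. Of the 24 genes with the shortest, from 75 to 399 bases, 6 rose, with a median log2 change of 0.40. Of the middle 24, from 405 to 534 bases, 2 rose and the median was 0.31, and of the longest 24, from 552 to 1257 bases, 1 rose and the median was 0.26. These are 25%, 8.33% and 4.17% of the genes. All tested coding genes were split into equal groups at other lengths: 75 to 1044, 1044 to 1881 and 1884 to 100401 bases. Of these groups 6.31%, 4.51% and 3.48% rose. The groups of the 72 genes are thus not matched in length to those of all genes. Even the longest of the 72, at 1257 bases, is shorter than any gene in the longest group of all genes. Spearman's rho of the change with coding length was −0.57 across the 72 genes, −0.68 in the large subunit (n = 44) and −0.35 in the small subunit (n = 28). Genes are not independent replicates, since all share the same 4 libraries. Across all 13450 tested coding genes rho was −0.18, and the medians of the same groups were 0.09, 0.01 and −0.07. Between libraries of 1 genotype rho was 0.11 for CKO A over CKO B and −0.17 for WT A over WT B. With annotated transcript length, a different measure from coding length, rho was −0.41 across the 72 genes. An alternative chosen after seeing the data removed the trend with annotated transcript length, and rho with coding length was then −0.50. In that fit 5 of the 9 calls remained (Rpl37a, Rpl41, Rps19, Rps27 and Rps28), against 4.75% of all genes. The other 4 lost the call with adjusted p-values (edgeR) from 0.0542 to 0.0654, and their changes moved about as far as those that kept it: Rps18 had 0.43, against 0.53 before, and Rpl37a, which kept it, had 0.40, against 0.51 before.

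**Figure D5:**
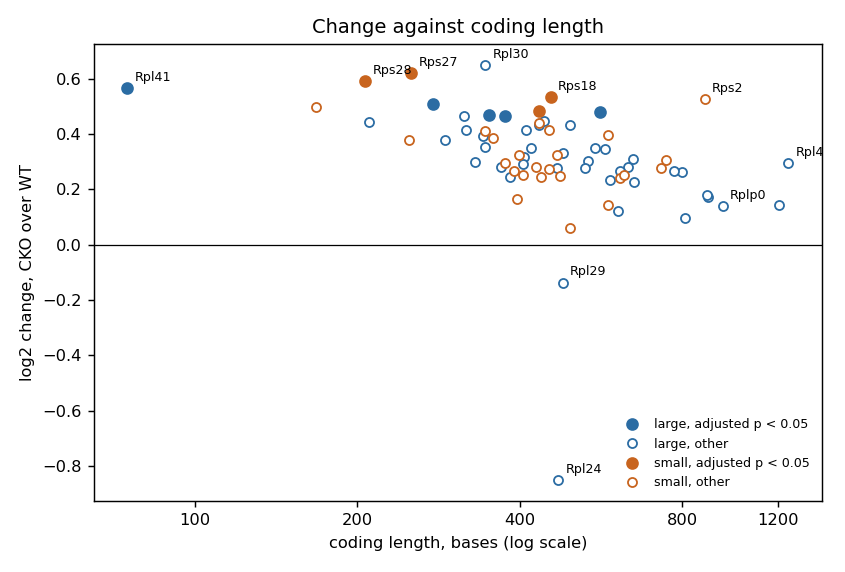
Log2 change of CKO over WT against coding length in bases (log axis) for the 72 genes, by subunit; filled points passed an adjusted p of 0.05. The shortest 24 genes have a median of 0.40 and the longest 24 a median of 0.26.

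Ribosomal proteins whose symbols fall outside the name pattern were also measured. Fau, a fusion of a ubiquitin-like protein with Rps30, had 266 and 258 CPM in CKO and 178 and 177 CPM in WT, and rose (log2 0.56 ± 0.11 SE, edgeR adjusted p = 0.0210). Rpsa had a log2 change of 0.24 and Rack1 of 0.22, and neither passed. Rps3a1, named after its values were seen, had 522 and 473 CPM in CKO and 362 and 409 CPM in WT and did not pass (edgeR adjusted p = 0.124).

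Among paralogs of the ribosomal proteins, 2 of 7 tested rose (28.6%, against 4.85% of all genes), and by far more than any gene of the class. Rpl39l, a paralog known from testis, had 275 and 397 reads in CKO and 0 reads in both WT libraries, so at least 223-fold higher with 3 reads taken as the limit for the whole WT group (edgeR adjusted p = 0.00176). Rps4l had 115 and 161 CPM in CKO and 39.8 and 34.9 CPM in WT (log2 1.88 ± 0.18 SE, edgeR adjusted p = 0.00318). Its annotated transcript of 943 bases holds no coding sequence, so a rise in a protein cannot be read from it. Sharing of its reads with other genes was not tested. The other 5 did not pass, with log2 changes of 0.43 for Rps27l, 0.72 for Rps27rt, 0.19 for Rpl7l1, 0.18 for Rpl22l1 and 0.34 for Rpl36al.

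Other parts of the translation machinery had smaller medians than the 72 genes, in values set side by side without a test. Over all genes tested 4.85% rose and 2.75% fell. The genes that rose were 2.04% of the translation factors, 2% of the assembly factors and 1.3% of the mitochondrial ribosomal protein genes below. Of 49 translation factors 1 rose and none fell, with a median log2 change of 0.13; the 1 was Eif4ebp1, the inhibitor of cap-dependent initiation, with 45.8 and 45.2 CPM in CKO and 29.4 and 30.4 CPM in WT. Of 20 other TOP mRNAs none passed (median 0.12). Of 100 ribosome assembly factors 2 rose (median 0.09): Bop1, which acts in large-subunit rRNA processing, had 59.6 and 55.2 CPM in CKO and 40.6 and 38.9 CPM in WT, and Nop14, of the small-subunit processome, had 43.9 and 41.8 CPM in CKO and 31.9 and 30.7 CPM in WT. Of 20 RNA polymerase I genes none passed (median 0.04), and of 17 genes that receive the nascent chain none passed (median 0.20). Of 77 mitochondrial ribosomal protein genes 1 rose, Mrpl52, with a median of 0.17.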

How the data were processed

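Sorted GFP-positive lung cells of 2 CKO and 2 WT mice at postnatal day 7 were profiled by RNA sequencing. Per the submitters' processing notes, the build was GRCm38.p6 and the tools included STAR, edgeR 3.28.1, Trimmomatic 0.36, cutadapt 2.5 and FastQC 0.11.8. The counting tool and strand setting were not given in the sources used here. The authors deposited raw counts per gene, and beside them their own log2 fold changes and adjusted p-values, used only where named. The 4 deposited RPKM columns were not used.

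Counts were tested with edgeR 4.0.16 (R 4.3.3; quasi-likelihood, robust, TMM, filterByExpr with a minimum count of 10), with Benjamini-Hochberg adjustment over 15210 genes and a threshold of 0.05. DESeq2 1.42.0 and limma 3.58.1 were alternatives, and the steps were tested on simulated data. There the edgeR fit called 52 of 100 genes changed 2-fold, 97 of 100 changed 4-fold and 3 of 15010 unchanged. Changes under 2-fold were not simulated, so a gene that did not pass may still have changed. Coding and transcript lengths came from GENCODE, matched by gene ID, and promoters from RefSeq. The members and lists were chosen with earlier results of these data known. Named were all called members, the 3 largest rises and falls and the 3 highest and lowest levels in each subunit, the stalk and 5S particle proteins, tested paralogs and ribosomal proteins outside the pattern, called genes of the other lists, and Dnmt1; a few of these are not reported here. Litters are not labelled, and p-values measure only the spread between these libraries (biological coefficient of variation 0.160).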

Additional observations from a re-analysis of the deposited data

How the results depend on the processing

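The count of members called higher, 9 here, was 23 with DESeq2 on all 31247 genes, with no filter before the fit. It was 26 with DESeq2 on the filtered genes, an alternative added after seeing the data. DESeq2's own default filter stayed on in both. The count was 27 with edgeR and no filter on low counts, 0 at an adjusted p under 0.01 and 5 with the trend with transcript length removed. Leaving out each library gave 0 (without WT B) to 13 (without CKO B). The count was 6 to 10 under library size alone, RLE size factors, limma-voom, TMM without the members and a mean CPM of at least 1. With robust estimation off, and with reads of -ps pseudogenes added, it was in that range too. In these settings 3.73% to 4.94% of all genes were called higher, against 4.85% here and 1.31% at an adjusted p under 0.01. With a library left out, the share of all genes called also moved, so those counts do not describe the members alone. No member was called lower under any of the settings named. Leaving out each library gave a median change of 0.235 to 0.422 in the large subunit and 0.236 to 0.384 in the small subunit, lowest without CKO A and highest without CKO B. The median of all genes, −0.009 here, was −0.115 with DESeq2 and −0.093 with edgeR when no filter was applied before the fit. It was 0.003 with DESeq2 on the filtered genes. Changes that turned direction, none of them called, were Rps10 with the length trend removed (−0.056) and, over the libraries left out, Rpl29 (−0.464 without WT A to 0.315 without WT B) and, each from without CKO A to without CKO B, Rpl13a (−0.03 to 0.293), Rps10 (−0.061 to 0.205) and Rpl22l1 (−0.004 to 0.368); the cause was not tested. No paired analysis was possible because the count columns carry no replicate numbers. With 2 libraries a group, exact tests cannot go below p = 0.333, and the 8 to 18 reads on Rpl24 limit what can be said of it.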

Other observations

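None of 19 genes of the mTOR and Myc pathways fell in CKO, against 2.75% of all genes, and the median log2 change was −0.03. In CKO 2 of the 19 rose, which is 10.5%, against 4.85% of all genes. Both are stress-induced inhibitors of mTOR signalling: Ddit4 had a log2 change of 1.35 (edgeR adjusted p = 0.00340) and Sesn2 of 1.02 (edgeR adjusted p = 0.00369). Myc itself had −0.08 and Mtor −0.11, and neither passed. Of 13 tested snoRNA host genes Snhg15 alone rose (7.69%, against 4.85% of all genes), by a log2 change of 0.90 (edgeR adjusted p = 0.0483). The 3 cycling markers summed to 354 and 397 CPM in CKO and 483 and 478 CPM in WT, and none of them passed.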
